A study of Homo sapiens with 17 samples.

Results

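The sites described here are genomic positions at which an RNA polymerase pausing time was listed when the run-on buffer held no sarkosyl, and at which no site was listed when it did. They were chosen by measured values: a site had to have a row at the same position and strand in both sarkosyl-free tables, and no row within 5 bp on that strand in either sarkosyl table. Of the 13507 reproducible sarkosyl-free sites that this rule covers, 6447 were found only without sarkosyl (47.7%), and the other 7060 were found in both buffers. In the other direction, 8990 of the 18016 sites reproducible with sarkosyl had no sarkosyl-free row within 5 bp. Absence was also common within a buffer. Outside the contigs left out below, 51111 rows of sarkosyl-free replicate 1 had no row at the same position in replicate 2. The reverse held for 27202 rows of replicate 2. All 4 tables together list 158141 distinct positions. Presence or absence in the tables is therefore what selected the sites and is given as a description, with no test. With the read depth unknown, an absent row does not show that no polymerase stood at a position. Minus-strand sites on chromosomes X and Y and on unplaced contigs were left out, because the sarkosyl tables have no row on the minus strand of X.

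The study used time-variant precision run-on sequencing (TV-PRO-seq) in HEK293 cells, an established line derived from human embryonic kidney. The cells of the 16 libraries used here grew untreated and without an engineered allele named in the labels. Permeabilised cells were allowed to run on for 0.5, 2, 8 or 32 min, either in a run-on buffer with sarkosyl or in one without it, and each combination was done in 2 replicates. These 16 libraries are represented by 4 tables, 1 for each buffer and replicate number, each holding a rate fitted per site and its reciprocal, the pausing time. The sarkosyl-free tables had 66089 and 41769 rows and those with sarkosyl 48566 and 47713. The number of reads behind a row is unknown, and the pausing time carries no unit. The labels name no batch, and a batch aligned with the buffers cannot be told apart from them. The tables are called replicate 1 and replicate 2, as numbered in the labels.

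In run-on sequencing, engaged polymerases add a labelled nucleotide to the growing RNA, and the 3′ end of that RNA marks where the polymerase stood. RNA polymerase II often halts shortly after it leaves a promoter, held by pausing factors until the kinase P-TEFb releases it, and it also slows in gene bodies and after the polyadenylation site. Sarkosyl, an anionic detergent, removes many chromatin-bound proteins and blocks new initiation, while polymerases already engaged can keep elongating.

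The bases around the sites were not used by the rule and differed between the sets, so members are shown first with their bases. Each run is 29 bases of the RNA-like strand, 5′ to 3′, from GENCODE v29 transcripts or RefSeq promoter windows (GRCh38.p14). The capitals mark the base before the site, the site itself and the base after it. The first 6 members are among those with the longest times when 1 member with known bases was taken from each of the 15 genes with the most members, a choice made after the values were seen.
RPL37, chr5:40827544-40827572, minus strand: tttatacggtgggAGTataccctggtgcc
RBM39, chr20:35702588-35702616, minus strand: ttctttggggcagAGAcactctgtcagtg
HNRNPU, chr1:244852598-244852626, minus strand: atttaacagttgaAGAtagtgtcatggat
RPL4, chr15:66498943-66498971, minus strand: ttacctcttgagaAGTgttctttttaacc
SPEN, chr1:15930002-15930030, plus strand: ttctgaaaggactGGTggttctcccagtg
ADAMTS1, chr21:26835978-26836006, minus strand: taaaaagccaaatGGTaaatatttgcaac
The next 9 members had the narrowest fitted quartiles of their annotation class or, in AC004834.1 and RNU6ATAC2P, some of the longest times of all.
RNU6ATAC2P, chr5:56297566-56297594, minus strand: cctacttcgtggcATCtaaccatcgtttt
AC004834.1, chr7:99325763-99325791, minus strand: gctgcagtggaggAGGgtacgccgttcca
BUB3, chr10:123167671-123167699, plus strand: ttagtgtcttagaAGTgatatgtttactg
RACK1, chr5:181243863-181243891, minus strand: aggcggcggcaggAGAggttgtggtgcta
COX11, chr17:54968606-54968634, minus strand: tggcgtcctggatGGAggtgcgttccttt
RPS15A, chr16:18788070-18788098, minus strand: aaaattgttgtgaACCtcacaggcaggct
RNY1, chr7:148987165-148987193, minus strand: tcgaactccttgtTCTactctttcccccc
AC004448.2, chr17:19446488-19446516, minus strand: gcagaagcagaccCGTgccggccagcgca
AL162430.1, chr1:51250692-51250720, minus strand: gacctctggaaggAGActgtatttaccaa
The last 4 were among the 5 members with the shortest times.
LIMD1-AS1, chr3:45688992-45689020, minus strand: ggttcgactcctgGCTggctcgcgatgtc
TPT1, chr13:45336294-45336322, minus strand: aatacaggaggaaAAAaagcgggaagagt
SNHG1, chr11:62854596-62854624, minus strand: ggcagttgttgttTATgaataagcttcat
DLL4, chr15:40929442-40929470, plus strand: attagacagaagaCGCgtcctcggcgcgg
Adenine followed by guanine at the site stood in 4 of the first 6 members, in 9 of the 15 from which they came, in 4 of the next 9 and in 0 of the last 4. Among all 2344 members with known bases, 503 were AGT, 312 AGA, 90 AGC and 80 AGG. The members shown are few and picked, so whether these bases go with pausing time cannot be read from them.

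Sites found only without sarkosyl more often stood at a guanine than sites found in both buffers. Bases were known for 2344 of the 6447 sites, those in annotated exons or promoter windows, and for 3598 of the 7060 sites found in both buffers. Guanine was at the site in 69.4% of the former (95% Wilson interval 67.5% to 71.2%) and in 52.5% of the latter (50.8% to 54.1%). Among 4189 sites of the opposite kind, reproducible with sarkosyl and absent without it, guanine was at the site in 15.6% and cytosine in 82.3%. Cytosine was at 25.9% of the sites found only without sarkosyl and at 38.0% of those found in both buffers. The sets thus differed in opposite directions from the shared sites. These intervals cover counting error only, since sites of 1 table pair are not replicates, and they were not tested.

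The neighbouring bases differed as well. Adenine preceded 45.8% of the sites found only without sarkosyl, 25.6% of those in both buffers and 9.24% of those found only with sarkosyl. Thymine followed 51.7%, 42.7% and 33.8% of the sites of these sets. Guanine plus cytosine made up 51.8% of the surrounding bases, against 57.8% around sites found in both buffers. The excess of guanine was seen on both strands, at 70.5% on plus and 68.3% on minus for sites found only without sarkosyl. It was seen in coding exons, at 73.6% against 52.2%, past gene ends, at 74.3% against 56.2%, and near coding starts, at 73.4% against 65.1%. In mitochondrial DNA guanine was rare in both sets, at 16.7% of 42 sites and 15.1% of 305 sites. Among sites with the narrower fitted quartiles in both tables, described with the pausing times, the excess of guanine was 6.70 percentage points, against 16.9 over all sites with known bases.

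**Figure D1:**
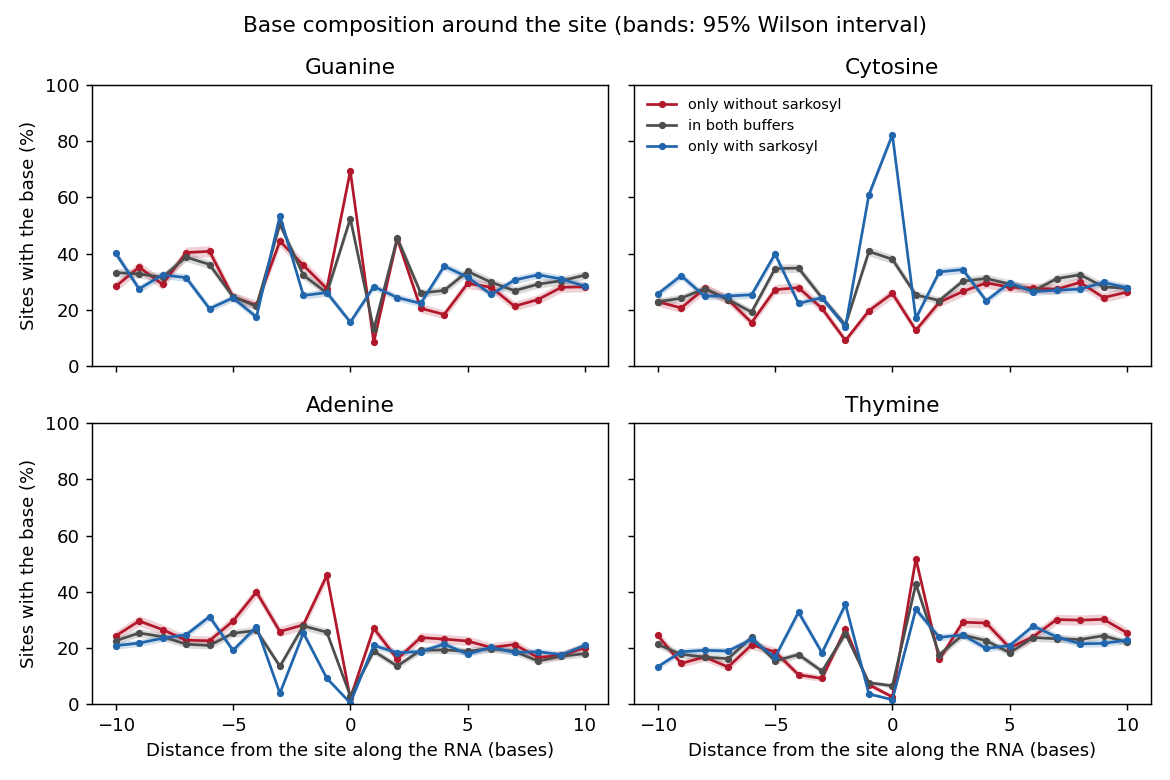
Percentage of sites with each base (vertical axes) from 10 bases before to 10 bases after the site (horizontal axes, distance along the RNA), for sites found only without sarkosyl, in both buffers and only with sarkosyl; bands are 95% Wilson intervals. Guanine at the site reaches 69.4% without sarkosyl, and cytosine at the site reaches 82.3% in the sites found only with sarkosyl.

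The 3 letters before, at and after the site went with how often a reproducible sarkosyl-free site lacked a sarkosyl row. Of the 5942 sites with known bases, 39.4% were found only without sarkosyl. The share was 70.6% for AGA, where 312 sites were found only without sarkosyl, 60.5% for AGT with 503 and 58.6% for GGT with 143. It was 12.5% for GCC, 12.3% for CCC and 10.6% for ACC, each counted on the RNA-like strand. RPL37, RPL4 and BUB3 above are examples of AGT, and RBM39, HNRNPU and RACK1 of AGA. RPS15A stood at an ACC, the triplet with the lowest share among those with at least 60 sites.

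Pausing times were longer at the sites found only without sarkosyl than at the sites found in both buffers. Their median was 3.98 in replicate 1 and 8.70 in replicate 2, against 1.80 and 2.48. The log2 difference of the medians was 1.15 in replicate 1 and 1.81 in replicate 2, which is 1.48 ± 0.47 (SD, n = 2 tables). Both tables therefore gave a higher median, by 2.22-fold and 3.50-fold. With 2 tables no test was made. A pausing time of at least 10 in both tables was listed for 944 of the sites found only without sarkosyl (14.6%) and for 379 of those in both buffers (5.37%). A time under 1 in both tables was listed for 342 (5.30%) and 1234 (17.5%). Across the 6447 sites the 2 tables correlated with a Spearman rho of 0.38, against 0.46 across the 7060 others, as a description of sites that share the tables.

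**Figure D2:**
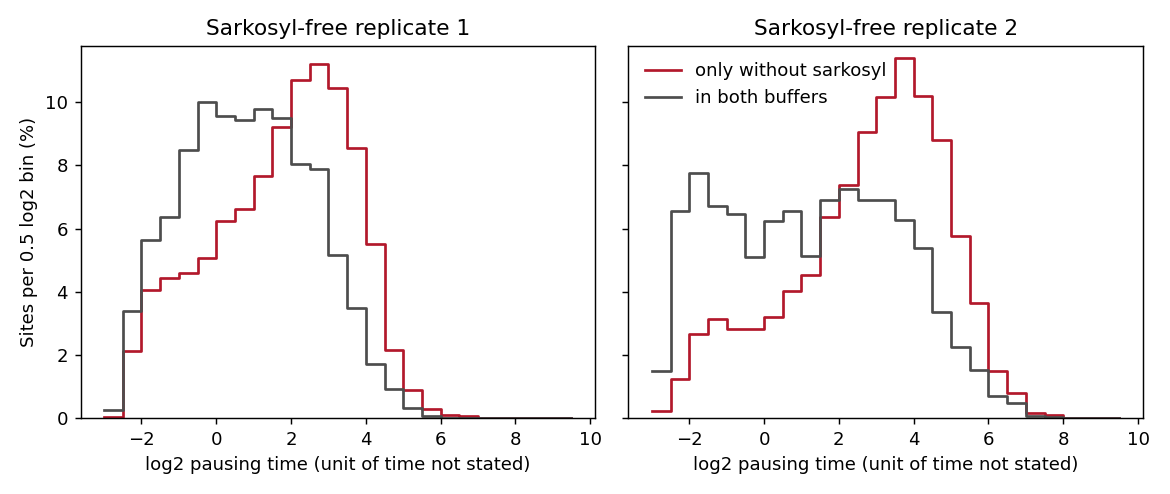
Percentage of sites (vertical axis) per bin of 0.5 log2 units of pausing time (horizontal axis) in each sarkosyl-free table, for sites found only without sarkosyl and sites found in both buffers. The first set has a median of 3.98 in replicate 1 and 8.70 in replicate 2, the second 1.80 and 2.48.

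The size of this difference moved with how narrowly the rates were fitted and with the bases. The ratio of the upper to the lower quartile of a site's rate had a median of 2.77 and 2.19 at the sites found only without sarkosyl, and of 3.53 and 2.92 at the sites in both buffers. Among sites whose ratio was at or below the median of all 13507 in both tables, 2901 were found only without sarkosyl and 1603 in both buffers. The log2 difference was then 0.29 in replicate 1 and 0.20 in replicate 2, with medians of 8.47 against 6.94 and of 16.7 against 14.5. Among sites above that median in both tables, 1263 were found only without sarkosyl and 3241 in both buffers, and the difference was 0.07 and 0.85. Long times and narrow quartiles went together in these tables, so this restriction also took out most short times. Within a triplet the difference also varied. At AGA the medians were 5.48 and 11.3, against 5.88 and 10.8 at sites in both buffers, a log2 difference of -0.10 and 0.06. At AGT it was 0.39 and 0.08, and at AGC it was 1.63 and 1.52. The difference was also averaged over 42 combinations of triplet and annotation class with at least 10 sites of each kind. These held 1654 of the sites found only without sarkosyl, all with known bases, and the difference was 0.41 and 0.68. That comparison was added after the data were seen. With all sites of sarkosyl-free replicate 1, whether or not replicate 2 listed them, the difference in that table was 0.81. The part that bases and fit certainty have in the difference was not tested.

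The edge of the rule fell in a gradual change. Sites whose nearest sarkosyl row lay at 1 to 5 bp, just outside the set, numbered 1899 and had medians of 2.91 and 5.05. Sites with the nearest row at 6 to 10 bp, just inside it, numbered 676 and had medians of 4.04 and 8.44. Sites with a sarkosyl row at the same position had 1.54 and 1.88. At the far end, 964 sites had no sarkosyl row within 10000 bp, with medians of 3.18 and 7.27. Another reproducible sarkosyl-free site lay within 50 bp of 11.4% of the sites found only without sarkosyl, of 30.6% of those in both buffers. Clustering is not independent of the rule, since a cluster offers more chances of a nearby sarkosyl row.

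By annotation, the sites found only without sarkosyl lay in gene bodies and past gene ends more often, and near starts less often, than the sites in both buffers. Introns of coding genes held 30.5% of them, against 10.5%. Exons of coding genes held 13.6%, against 7.49%. The 10000 bp past the end of a coding gene, where polymerases run on after RNA cleavage, held 20.2%, against 11.3%. The first 300 bp after a coding start, where promoter-proximal pausing occurs, held 11.3%, against 24.9%. The starts of non-coding transcripts held 5.21%, against 11.6%. Sites found only with sarkosyl lay between these values in introns, at 18.3%, and near coding starts, at 21.2%.

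Read by class, 72.6% of the reproducible sites in coding introns were found only without sarkosyl, 62.3% in exons and 62.1% past gene ends. Near coding starts it was 29.4%, in intergenic regions 31.7% and in mitochondrial DNA 12.4%. The median pausing time was longer than that of sites in both buffers, in both tables, in each of the 11 classes except mitochondrial DNA. In introns it was 3.94 and 9.26, against 2.18 and 3.67. In exons it was 5.15 and 10.4, against 2.92 and 3.44. Near coding starts it was 3.78 and 8.51, against 1.83 and 3.66, so the difference was also present where pausing is best known. Mitochondrial sites gave 1.87 and 0.29, against 1.70 and 0.38.

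**Figure D3:**
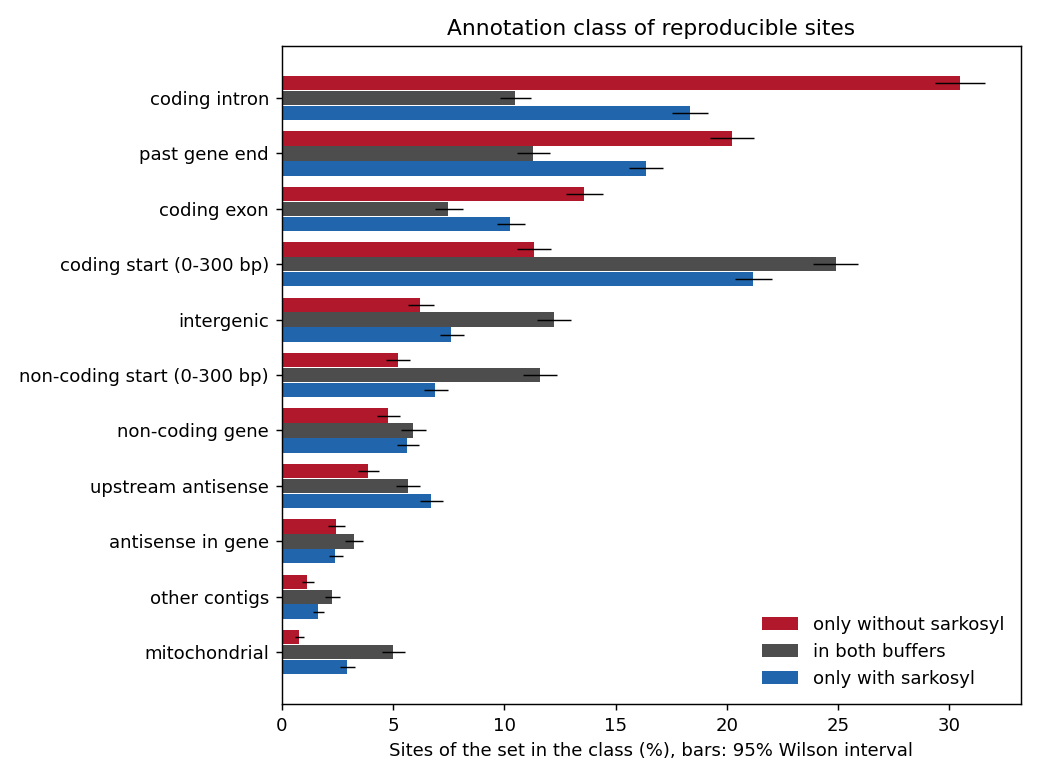
Percentage of the sites of a set (horizontal axis) in each annotation class (vertical axis), for sites found only without sarkosyl, in both buffers and only with sarkosyl; error bars are 95% Wilson intervals. Coding introns hold 30.5% of the first set and 10.5% of the second, and the first 300 bp after coding starts hold 11.3% and 24.9%.

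The share found only without sarkosyl changed with distance from the nearest annotated start on the strand. It was 33.5% in the first 20 bp and 23.0% at 61 to 100 bp. It rose to 59.8% at 1001 to 5000 bp and to 66.1% at 5001 to 20000 bp, and was 50.1% at 20001 to 100000 bp. Within gene bodies the sites lay a median of 5047 bp from a start, and the sites in both buffers 2879 bp. Past gene ends the share varied little, from 58.7% at 501 to 1000 bp to 65.2% at 2001 to 5000 bp.

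**Figure D4:**
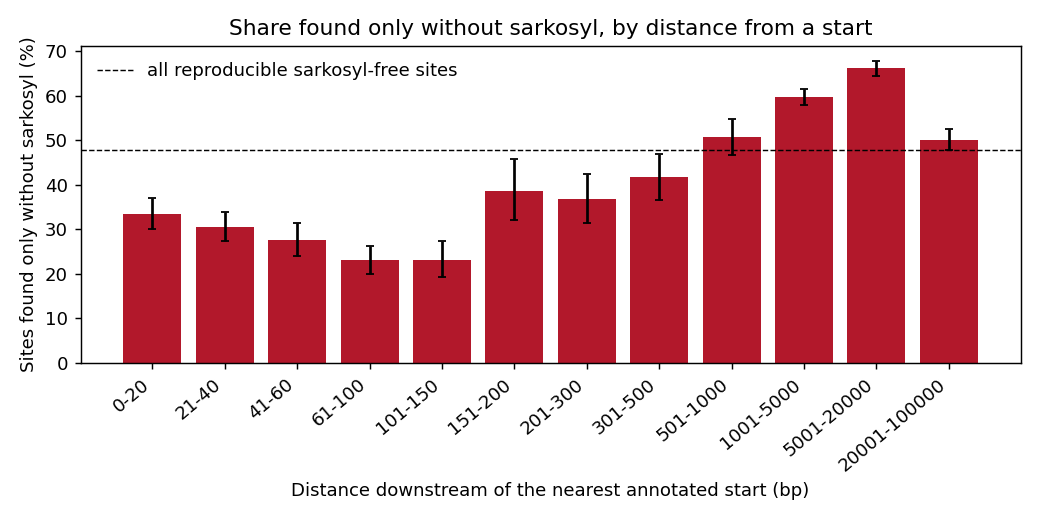
Percentage of reproducible sarkosyl-free sites found only without sarkosyl (vertical axis) by distance downstream of the nearest annotated start (horizontal axis, bp); error bars are 95% Wilson intervals and the dashed line is the 47.7% of all sites. The bars are lowest at 61 to 150 bp and highest, at 66.1%, at 5001 to 20000 bp.

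The sites found only without sarkosyl fell in 2650 annotated genes on their own strand, of 4352 genes with a reproducible sarkosyl-free site, and 1902 of these genes had 1. A total of 106 genes had 5 or more. In 272 genes, with 287 sites, neither sarkosyl table had any row on the strand. ABCA2, a lipid transporter gene, and B4GALT5, which encodes a galactosyltransferase, are examples with 2 sites each. The sites of ABCA2 ranged from 4.74 to 11.2 in replicate 1 and from 0.30 to 1.80 in replicate 2. ADAM22, a gene of a neuronal surface protein, and the antisense RNAs CDKN2B-AS1 and AC034236.2 also had 2.

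By number of sites, a zinc finger gene and an hnRNP gene stood near the head. ZNF711, a zinc finger gene on chromosome X (85244032 to 85273362, plus strand), had 20 of its 34 reproducible sites in the set, 16 of them intronic. Their times had a low, median and high of 0.48, 7.50 and 41.7 in replicate 1 and of 0.97, 11.4 and 71.4 in replicate 2. HNRNPA2B1, which encodes an hnRNP protein that packages nascent RNA, had 18 of 36, 15 of them in introns. Its medians were 6.05 and 18.6, against 3.56 and 5.29 at its sites in both buffers. SLIT2, the gene of a secreted axon guidance protein, had 16 of 19. Its medians, 4.71 and 11.3, were close to those of its 3 sites in both buffers, 4.65 and 9.43.

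RBM39, a splicing factor gene, had 15 of 19 sites in the set, 9 of them in exons. They had medians of 13.7 and 18.5, against 7.19 and 26.9 at its 4 sites in both buffers. On the log2 scale, where the middle values average differently, its median was higher by 1.77 in replicate 1 and by 1.27 in replicate 2, so the direction in replicate 2 depends on the scale. SPEN, a gene of a transcriptional repressor, had 15 of 23, with medians of 5.95 and 8.13 against 7.84 and 7.49 in both buffers, lower in replicate 1. LDHB, which encodes a lactate dehydrogenase subunit, had 14 of 15, with times from 0.46 to 20.8 in replicate 1 and from 0.91 to 52.6 in replicate 2. HNRNPU, a gene of an RNA- and chromatin-binding protein, had 13 of 29, with medians of 9.52 and 16.7 against 2.79 and 3.87 in both buffers. The share of sites found only without sarkosyl thus ran from 44.8% in HNRNPU to 93.3% in LDHB among these genes. It was 47.7% over all reproducible sites and 72.6% in coding introns, so HNRNPU lay below the share of all sites. The genes were ranked by number of sites, not by share, and were not matched for annotation class.

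A further 19 sites were assigned to AC015813.2, a clone-named coding model on chromosome 17. All 19 lay past the annotated end of SRSF1, a splicing factor gene that overlaps the model on the same strand, so they can also be read as sites downstream of SRSF1. The remaining genes with the most sites were RPL37 with 12 of 30, ADAMTS1 with 11 of 28, and SERBP1, ZNF146, MDM2, SON and RPL4 with 10 each. RCC1, a gene of a chromatin-bound exchange factor, also had 10 and came after these because a smaller share of its sites was of this kind. The shares of RPL37 and ADAMTS1, the latter 39.3%, lay below the 47.7% of all sites, and that of RPL4 was 47.6%. SERBP1, an mRNA-binding protein gene, and ZNF146, a zinc finger gene, each had 10 of 11. MATR3, a nuclear matrix protein gene, is annotated as 2 overlapping models that together had 12 of 15, and it was singled out after its values were seen.

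Within single genes the longer times were common but not general. In 96 genes with at least 3 sites found only without sarkosyl and at least 3 found in both buffers, the median of the former was higher in 75 genes in replicate 1 and in 74 in replicate 2. It was higher in both tables in 61 genes and in neither in 8. Medians were taken of log2 times. The median log2 difference over the genes was 1.03 and 1.29. HNRNPU had differences of 1.77 and 2.11 and SON, a splicing cofactor gene, of 0.60 and 3.43. ZNF711 went the other way, at -0.24 and -0.29.

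**Figure D5:**
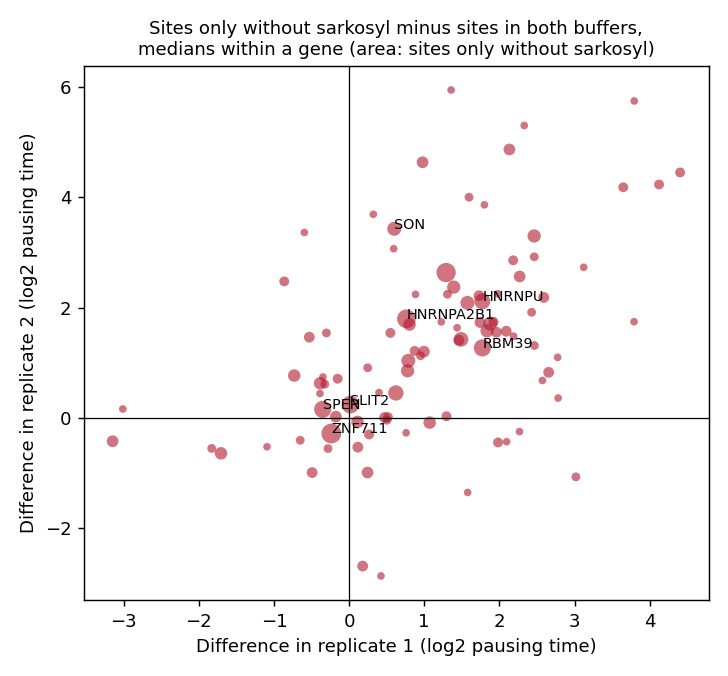
Difference of median log2 pausing time within a gene, sites found only without sarkosyl minus sites found in both buffers, in sarkosyl-free replicate 1 (horizontal axis) and replicate 2 (vertical axis); each of the 96 points is a gene and its area grows with the number of sites found only without sarkosyl. In 61 genes both differences are above 0.

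Past the ends of 902 coding genes there was at least 1 site found only without sarkosyl, and past 87 there were 3 or more. SERBP1 had 8 of 11 such sites, 64 to 6399 bp past its end. RPS12, a ribosomal protein gene, had 8 of 14, HNRNPU 8 of 17 and SRSF3, a splicing factor gene, 7 of 7. All 6 sites past TCP1, a chaperonin subunit gene, were of this kind, with medians of 6.60 and 10.7. Of all 2101 reproducible sites past coding gene ends, 1304 (62.1%) were of this kind, and RPS12 and HNRNPU lay below that share. The genes named here were picked by their counts and had few sites each, so the counts are descriptive.

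Gene groups differed in how many of their sites lacked a sarkosyl row, set against the 47.7% of all sites. That share also differed by annotation class, at 72.6% in coding introns, 62.3% in exons and 29.4% near coding starts. The groups were not matched for class, and the part that class has in these and the following shares was not tested. Chromosome 19 zinc finger genes had 115 of 187 (61.5%), in 61 genes. ZNF146 led them, followed by ZNF227 with 7 of 17, ZNF567 with 5 of 6 and ZNF226 with 5 of 8. The hnRNP genes had 92 of 161 (57.1%). HNRNPA3 had 8 of 9 and PCBP2, a poly(C)-binding protein gene, 6 of 7. Chaperone genes had 37 of 65 (56.9%), led by HSP90B1 with 6 of 8 and CCT5 with 6 of 9, and including all 4 sites of HSF2, a heat shock factor gene. Glycolysis genes had 27 of 48 (56.3%), of which LDHB gave 14, ENO1 8 and PKM 4.

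Translation factor and ribosomal protein genes had shares below that of all sites, while SR splicing factors and abundant long non-coding RNAs were near it. SR splicing factors had 30 of 66 (45.5%), with SRSF3 at 7 of 14 and TRA2B at 5 of 8. Translation factors had 53 of 125 (42.4%). EEF1A1, the elongation factor gene, had 6 of 21, with medians of 17.3 and 11.9. Cytosolic ribosomal protein genes had 168 of 435 (38.6%), in 55 genes, with RPL37, RPL4, RPS19 and RPL37A at the head. The abundant long non-coding RNAs on a list of 12 had 26 of 56 (46.4%), among them MALAT1 with 6 of 15 and NEAT1 with 6 of 16. The actin, tubulin and vimentin genes had 5 of 13 (38.5%) and the spliceosomal snRNAs 5 of 10 (50%).

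The lowest shares were those of mitochondrial, histone and small RNA host genes, immediate early genes, polymerase III transcripts and pause factors. Those of polymerase III transcripts and pause factors rest on only 13 and 12 sites and are imprecise. Mitochondrial genes had 23 of 214 (10.7%) and replication-dependent histone genes 14 of 89 (15.7%). Hosts of small nucleolar RNAs had 31 of 143 (21.7%), 8 of them in ZFAS1 and 6 in SNHG5. Immediate early genes had 12 of 52 (23.1%), 5 of them in JUN. Polymerase III transcripts had 3 of 13 (23.1%), and the sites of RNU6-1 and RNU6ATAC among them also count with the spliceosomal snRNAs. Pause and elongation factors had 3 of 12 (25%). The last were 1 site each near the starts of POLR2A, the largest polymerase II subunit, POLR2M and CTR9. POLR2A had 20.8 and 41.7, POLR2M 17.2 and 50, and CTR9 1.35 and 0.28. Histone, snRNA, Y RNA and ribosomal protein sequences have near-identical copies, so the assignment of their sites to single genes is uncertain.

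Mitochondrial sites were few, and several of those with the longest times stood at gene ends. Of 50 sites found only without sarkosyl, 5 lay within 2 bp of an annotated gene end on their strand, and of 352 in both buffers 11 did. The longest pausing time of all 6447 was at position 7584 on the plus strand, 1 bp before the end of the aspartate tRNA gene MT-TD, at 200 in replicate 1 and 1000 in replicate 2. The last base of MT-TL2 had 35.7 and 167, that of MT-TW 22.2 and 250.0, and that of MT-TF 11.8 and 200. Long times were also listed more than 2 bp from a gene end, although distances to gene starts are not given here. A minus-strand site 5 bp past MT-TN, already within MT-TA, had 17.9 and 100, and a plus-strand site 597 bp past MT-ND5 had 13.3 and 111. The deposited rates carry 3 decimals, so 1000 is the longest time that can be listed above a rate of 0.

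Several other extremes were near non-coding starts. Besides MT-TD, the 5 longest included sites in RNU6ATAC2P, a pseudogene of the U6atac snRNA, at 76.9 and 200, in AC004834.1, an antisense RNA gene, at 90.9 and 143, and in an intergenic region of chromosome 6, at 111 in both tables. The 5 shortest were assigned by position to LIMD1-AS1, at 0.21 and 0.14, to TPT1, SNHG1 and DLL4, and to UCHL5. Whether these sites belong to transcripts of the named genes was not tested. All 5 lay between 85 and 142 bp after an annotated start, 4 of them of a non-coding transcript. DLL4, a Notch ligand gene, had 0.17 and 0.24. The sites of TPT1, LIMD1-AS1 and AC004834.1 lay 6, 7 and 8 bp from a sarkosyl row, just outside the 5 bp of the rule.

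The site of COX11, a gene for copper delivery to cytochrome oxidase, lay 26 bp after a start and had 90.9 and 76.9. Its nearest sarkosyl row was 6 bp away, just outside the 5 bp of the rule. RACK1, a ribosome-associated scaffold gene, had 32.3 and 125 at 3 bp after its start. RPS15A, a ribosomal protein gene, had 37.0 and 125 in an exon, 350 bp from the nearest sarkosyl row, and BUB3, a spindle checkpoint gene, had 41.7 and 52.6 in an exon. RNY1, a Y RNA gene, had 25 and 143. An intronic site of RPS29 had 31.3 and 76.9, one of SF3B3 20 and 62.5, and a site 2362 bp past PNN had 43.5 and 83.3. These sites were picked for narrow quartiles, and all of them also had long times in both tables.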

How the data were processed

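Run-on libraries of HEK293 cells were processed by the authors. The submitters' processing notes name cutadapt 1.14, HISAT2 2.1.0, SAMtools and bedtools, and the build hg38. Per the file headers, each deposited table lists, per position and strand, a fitted rate by its median, quartiles, mean and errors, and a pausing time; the authors deposited these values as scores with no stated unit. The pausing time was the reciprocal of the median rate in every row. How sites were called and which model and prior gave the rates are not given in the sources used here, and read depth is unknown, so precision is given only as the fitted quartiles and the spread between tables. Each table was taken to join the 4 run-on times of 1 replicate number, as its name and the sample titles give it. The labels do not say whether replicates were separate cultures. Of 17 samples, 1 was not analysed here.

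Sites were matched by position and strand and annotated with GENCODE v29 in a fixed order of classes. Start regions were 300 bp, upstream antisense regions 1000 bp and regions past coding genes 10000 bp. Bases came from GENCODE transcripts and RefSeq promoter windows (GRCh38.p14). The base composition at the site was similar on both strands when positions were counted from 1. The software was pandas 2.3.3, matplotlib 3.10.9, scipy 1.17.1 and numpy 2.4.6 under Python 3.11.15, and the matching was tested on simulated data.

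The sites, the 16 gene lists and the comparisons were chosen with earlier results of these data known. Named were the 15 genes with the most sites, the first 5 with no sarkosyl row, up to 4 per list, the 5 longest and 5 shortest sites, and the 2 sites per class with the narrowest quartiles, of which some are not reported here. Alternatives varied the match distance, the tables, contigs, strand, certainty, spacing, windows and base position. No test was made, because sites of a table are not replicates and each buffer has only 2 tables. The choice of guanine at the site as the base result was made after the data were seen.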

Additional observations from a re-analysis of the deposited data

Results flagged for a closer look

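A total of 398 sites reproducible between the sarkosyl-free tables lay outside the comparison, on minus-strand X and Y and unplaced contigs, where the sarkosyl tables cannot be compared. Of these, 370 were on chromosome X. Their median pausing times were 3.64 and 7.27, and the sarkosyl tables had 0 rows on minus-strand X.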

How the results depend on the processing

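Of 95 recalculations, 39 stayed within the limit set for the kind of value and 55 moved beyond it. The limit was 1.5 times for the number of sites, 1 SD of the 2 tables for pausing time and the 95% interval for shares and rho. The base shifted to the next position reversed the guanine excess of 16.9 percentage points, to -4.53, and the previous position gave 1.57. The share found only without sarkosyl, 47.7%, was 61.8% when only a sarkosyl row at the same position counted, 42.7% within 10 bp and 33.6% within 50 bp. It was 45.6% when the sarkosyl-free tables were matched within 5 bp, 49.1% on chromosomes 1 to 22 and X, 53.0% with 1 site per 1 kb and 64.4% among the more certain sites. The plus strand alone held 3362 such sites, and the more certain sites 2901.

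The difference in the share within 300 bp after a start, -19.9 percentage points, was -18.0, -21.5 and -24.2 at match distances of 0, 10 and 50 bp. It was -22.5 on chromosomes 1 to 22 and X, -24.9 with 1 site per 1 kb, -15.4 with a window of 100 bp and -13.6 for starts of coding transcripts. The guanine excess was 13.6 at 50 bp, 19.4 with tables matched within 5 bp, 14.4 on chromosomes 1 to 22 and X, 12.4 with 1 site per 1 kb and 6.70 among the more certain sites. The difference in clustering, -19.2 percentage points, was -11.6, -22.1 and -26.9 at match distances of 0, 10 and 50 bp. It was -26.0 with tables matched within 5 bp, -16.7 on chromosomes 1 to 22 and X and -7.32 among the more certain sites. Windows of 20 and 200 bp gave -16.3 and -22.5, and 1 site per 1 kb gave -0.14, since it removes most neighbours by construction. The Spearman rho of 0.38 was 0.42, 0.35 and 0.31 at match distances of 0, 10 and 50 bp, 0.33 with tables matched within 5 bp, 0.35 with 1 site per 1 kb and 0.22 among the more certain sites. The log2 difference in pausing time, 1.48, was 0.24 among the more certain sites and 0.55 within triplet and class. The latter covered 1654 of the 6447 sites found only without sarkosyl. The cause of these shifts was not tested.

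Leaving out each table in turn gave 7108 to 48255 sites, a share of 52.6% to 74.7% and a pausing-time difference of 0.81 to 1.59. The same settings gave a start difference of -22.2 to -14.0, a guanine excess of 15.7 to 24.9, a clustering difference of -32.4 to -19.5 and a rho of 0.39 to 0.41. Without a sarkosyl-free table no rho exists, and sites seen in a single table enter. Those 2 settings, without sarkosyl-free replicate 1 and without replicate 2, gave 27469 and 48255 sites and a pausing-time difference of 1.59 and 0.81. Each of these differences is that of the 1 remaining table. For the reproducible sites it was 1.81 in replicate 2 and 1.15 in replicate 1. Depth could not be weighed, since no read numbers were given.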
